A study of Mus musculus with 3 samples.

Results

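The cells described here were selected on the UMIs (molecules counted once each by their unique identifier) of 6 genes. A cell was kept when it held at least 1 UMI each of Shh, T and Foxa2 and 0 UMIs of the ciliary genes Foxj1, Fam183b and Cfap126. The rule found 156 cells among the 22168 cells that passed quality control, with 53 in embryo 1, 66 in embryo 2 and 37 in embryo 3. They made up 0.865%, 0.813% and 0.467% of the cells of those embryos, a mean of 0.715% ± 0.216 (SD, n = 3). The cells were proposed as notochordal axial mesoderm, with Shh, T, Foxa2 and Nog as markers. The data went against that name for a large share of them, because the endoderm genes Trh and Sox17 were detected together in 75. Nog had 0 UMIs in 81, which does not by itself show that those cells lack it. The selected cells are therefore called Shh+ T+ Foxa2+ cells here.

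The study profiled single cells of 3 individual wild-type embryos at embryonic day 8 on a mixed C57BL/6 and 129 SvEv background, with 1 droplet library (10x Genomics) per embryo and no treated or mutant group. The labels give a range of 0 to 2 somites and the protocol 0 to 1. Extraembryonic tissue was dissected away, and the embryos used were male. Embryos 1, 2 and 3 gave 6129, 8116 and 7923 cells after filtering, with medians of 26705, 14461 and 16242 UMIs per cell, from libraries of 207961733, 149341900 and 167503888 UMIs. The summed Shh+ T+ Foxa2+ cells held 2288271, 1531434 and 1050364 UMIs. The embryo is the replicate throughout, and UMIs were summed over the cells of a class within each embryo before any test. The libraries shared 22, 18 and 19 barcodes pairwise, and 0 barcodes of the Shh+ T+ Foxa2+ cells were listed in another library. The cells were set against 846 gut endoderm cells (329, 282 and 235 per embryo), selected on at least 1 UMI each of Trh and Sox17 with T at 0, and against all 22012 other cells.

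The axial mesoderm arises from the node and the anterior primitive streak and forms the prechordal plate in front and the notochord behind. It lies under the neural plate, secretes the hedgehog ligand encoded by Shh and the BMP antagonists encoded by Nog and Chrd, and patterns the floor plate, the somites and the gut. T encodes the T-box factor Brachyury and Foxa2 a forkhead factor, and both act in the notochord, whereas Foxa2 is also a factor of the definitive endoderm. Notochordal and endodermal cells occupy one continuous epithelial sheet at this stage, and the ciliated node cells carry motile cilia whose programme is driven by Foxj1.

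The genes of the rule were at the following levels, given as a description because they chose the cells. Shh stood at 135, 191 and 103 counts per 1000000 UMIs (CPM) in the summed Shh+ T+ Foxa2+ cells of embryos 1, 2 and 3. T stood at 229, 296 and 258 CPM, and Foxa2 at 108, 122 and 94.3 CPM. In gut endoderm Foxa2 stood at 80.1, 62.4 and 64.1 CPM and was detected in 554 of 846 cells, so Foxa2 alone did not separate the classes. In the GENCODE annotation of GRCm38, Shh lies at chr5:28456815-28467256 (minus strand), T at chr17:8434423-8442496 (plus strand), Foxa2 at chr2:148042877-148046969 (minus strand) and Nog at chr11:89300638-89302332 (minus strand), and UMIs were counted over the gene.

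Much of the membership rested on single molecules. Of the 156 cells, 69 held exactly 1 UMI of Shh, 35 exactly 1 of T and 45 exactly 1 of Foxa2, and 100 held exactly 1 UMI of at least 1 of these genes. Just outside the rule, 587 cells lacked only Shh, 113 lacked only T and 67 lacked only Foxa2. On the ciliary side, 371 cells held Shh, T and Foxa2, of which 156 held 0 ciliary UMIs, 32 held 1, 27 held 2 to 5 and 156 held more than 5. Shh was detected in 2 of 417 cardiac cells (at least 2 UMIs of Tnnt2 and of Myl7 and 1 of Nkx2-5, T at 0), a cell type that should lack it. This share of 0.48% compares with 10.4% in gut endoderm, at median depths of 20760 and 18723.5 UMIs per cell.

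Nog, the marker that the rule did not use, was present in 75 of the 156 cells (48.1%, 95% exact binomial interval 40.0% to 56.2%, counting error only). By embryo it was present in 24 of 53, 33 of 66 and 18 of 37 cells. Trh, which encodes the precursor of thyrotropin-releasing hormone, and Sox17, an endodermal Sox factor, were detected together in 75 cells, of which 14 also held Nog. Nog without both Trh and Sox17 was found in 61 cells (17, 29 and 15 per embryo), Trh and Sox17 without Nog in 61 cells (21, 27 and 13), and neither set in 20 cells. Both sets were present in every embryo in similar proportions, with Nog in 48.0% ± 2.43 and Trh with Sox17 in 47.7% ± 4.83 of the cells (SD, n = 3). Nog was detected in 3.55% of gut endoderm cells and 23.3% of cardiac cells, and Trh in 6.24% and Sox17 in 6.00% of cardiac cells. In all other cells, which include gut endoderm, Nog was detected in 6.60%, Trh in 18.4% and Sox17 in 17.4%. After every cell was thinned to 5000 UMIs, Nog remained detectable in 30.5% of the 154 Shh+ T+ Foxa2+ cells deep enough, against 0.842% of gut endoderm cells. The plot of Nog against Trh and Sox17 per cell shows these values, with 28 of the 75 Nog cells holding at least 1 UMI of Trh or Sox17.

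**Figure D1:**
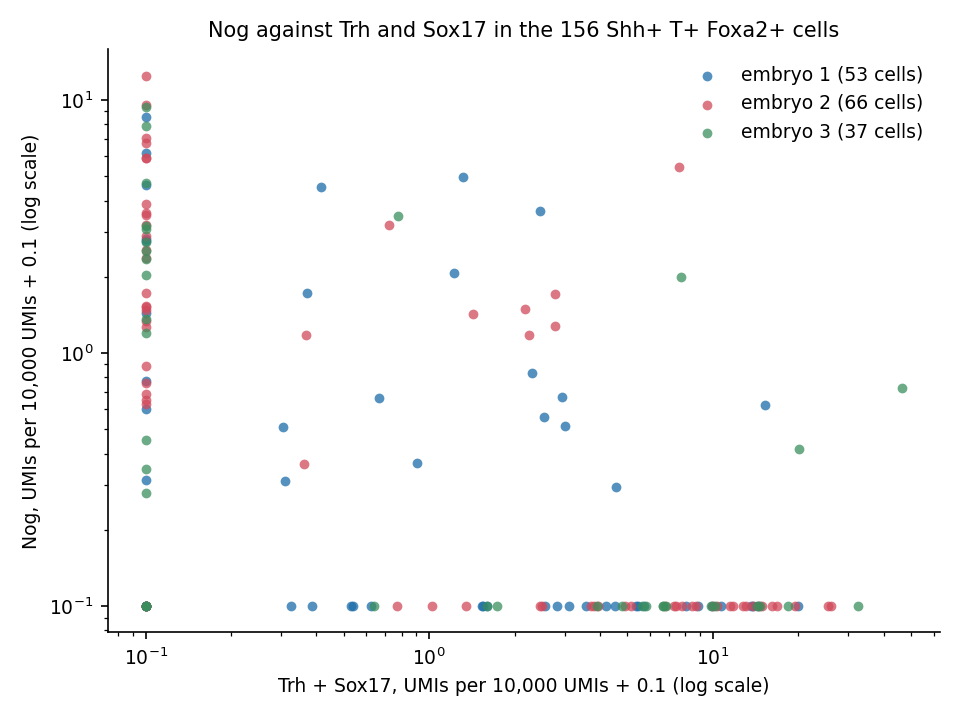
UMIs of Nog (vertical axis) against the summed UMIs of Trh and Sox17 (horizontal axis), per 10000 UMIs of each cell with 0.1 added, on log scales, for the 156 Shh+ T+ Foxa2+ cells, 1 point per cell, coloured by embryo. On the left edge (0 Trh and Sox17) lie 47 cells with Nog, on the lower edge (0 Nog) 71 cells with Trh or Sox17, between the edges 28 cells and at the corner 10.

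The sets also differed in the genes of the rule. The 61 cells with Nog and without both of Trh and Sox17 had medians of 7 UMIs of Shh, 8 of T and 2 of Foxa2 per cell. The 61 cells with Trh and Sox17 and without Nog had medians of 1, 2 and 4, and 47 of them held exactly 1 UMI of Shh. Their medians of Trh and Sox17 were 11 and 7 UMIs. Summed by embryo, Trh in these latter cells reached 460, 609 and 645 CPM and Sox17 173, 369 and 264 CPM. In gut endoderm Trh reached 527, 373 and 366 CPM and Sox17 154, 202 and 166 CPM, so the ranges overlapped. When at least 2 UMIs of Shh, T and Foxa2 each were required, 56 cells remained, and 43 of them (76.8%) held Nog. These sets were drawn from the values themselves and are described without a test.

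Depth and doublet scores moved with the selection. The Shh+ T+ Foxa2+ cells had medians of 37363, 19803 and 28344 UMIs, above the 22183, 15706 and 17074 of gut endoderm. Within them, the cells with Nog and without both of Trh and Sox17 had medians of 31572, 17235 and 14752 UMIs, and those with Trh and Sox17 and without Nog 52684, 22192 and 35796. Scrublet, which scores likely doublets, placed 12.8% of the Shh+ T+ Foxa2+ cells in the top 6% of their embryo, against 8.87% of gut endoderm and 5.63% of all cells. The share was 13.1% both among the 61 cells with Nog and among the 61 with Trh and Sox17. Leaving out the top-scored cells kept 136 of the 156. The part of depth in the split was not tested.

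Markers of other tissues were present at various levels. The 13 gut and definitive endoderm markers all had UMIs and include Trh and Sox17, on which gut endoderm was selected. The other 11 summed to 958, 831 and 1606 CPM, of which Spink1 was the most abundant, against 3727, 3559 and 5380 CPM in gut endoderm. The 6 extraembryonic endoderm markers all had UMIs and summed to 740 ± 92.7 CPM with Apoe as the most abundant, against 4713 ± 1811 CPM in gut endoderm and 2170 ± 1092 in all other cells (SD, n = 3). The 4 cardiac markers summed to 27.5, 60.1 and 23.8 CPM with Myl7 as the most abundant. The 3 surface ectoderm markers summed to 22.3 ± 5.69 CPM, with Wnt6 as the most abundant and Trp63 at 0. The 8 presomitic mesoderm markers summed to 109 ± 21.3 CPM with Rspo3 as the most abundant, and the 7 caudal epiblast markers to 232 ± 25.9 CPM with Cdx1 as the most abundant. Among the 8 markers of the left-right organizer, Foxj1 was at 0 by the rule.

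Against gut endoderm, the Shh+ T+ Foxa2+ cells were higher in the BMP antagonist genes Nog and Chrd, in Sox9 and in Ptch1, and lower in Ttr, Apoa1 and Rbp4, which encode carrier proteins of visceral endoderm and liver. By edgeR's quasi-likelihood test on the 3 sums per class with Benjamini-Hochberg adjustment, 251 of 10556 genes were higher (2.38% of the genes tested) and 414 lower (3.92%) at an adjusted p under 0.05, the genes of either rule being left out. With the embryo as a block, since both sums came from the same animals, 618 were higher (5.85%) and 833 lower (7.89%). Tests with the block use the spread left once the embryo effect is removed, not the spread between embryos. The count fell when embryo 2 or embryo 3 was left out. Without embryo 2, 178 genes were called, 172 of them among the original 665, and without embryo 3, 279, of which 268 were among them.

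Of the notochord list of 10, Noto, Sox5 and Sox6 did not pass the filter on low counts, and the 7 that passed it were called higher. With the block the 7 were also higher, and the share of all genes called higher was 2.38% (5.85% with the block). A gene can pass that filter through the class in which it is high, so counts over tested genes here and in the other lists are descriptions. Nog, a secreted BMP antagonist, stood at 47.6, 84.2 and 56.2 CPM in the Shh+ T+ Foxa2+ cells and at 2.00, 1.76 and 1.28 CPM in gut endoderm. The 3 embryos were all far above the endoderm, and the log2 fold change was 5.14 ± 0.27 (SE, adjusted p = 8.4e-07). Sox9, a Sox factor of cartilage and notochord, stood at 95.7, 105 and 77.1 CPM against 9.61 to 19.04, without overlap (2.54 ± 0.20, adjusted p = 2.9e-05). Chrd, the other BMP antagonist of the axial midline, stood at 17.5, 22.2 and 23.8 CPM against 5.79, 4.39 and 3.42, again without overlap (2.14 ± 0.25, adjusted p = 0.00034). Car3, a carbonic anhydrase, and Mnx1, a homeobox factor, changed by 2.57 and 2.03. Bicc1, which encodes an RNA-binding protein, and Col2a1, a fibrillar collagen of the notochord sheath, changed by 1.32 and 0.78.

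Leaving out the 75 cells with Trh and Sox17 raised the number of called genes to 479 higher and 733 lower (4.67% and 7.14% of 10259 genes tested), or 684 (6.67%) and 934 (9.1%) with the block as well. Of the original 665 calls, 563 were among the 1212 called without the block, in the same direction. Gut endoderm was itself selected on Trh and Sox17, so removing cells that hold both moves the rest away from it by construction, and calls against gut endoderm that remain or arise in that way are descriptions and no support. The log2 fold change of Nog then was 6.06 and that of Sox9 3.01. Bicc1, at 0.80, no longer passed the test. Noto, a homeobox factor of the node and notochord, was detected in 20 of the 156 cells and stood at 7.43, 9.14 and 1.90 CPM, against 0.334, 0 and 0.854 CPM in gut endoderm, where it had 7 UMIs in all.

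**Figure D2:**
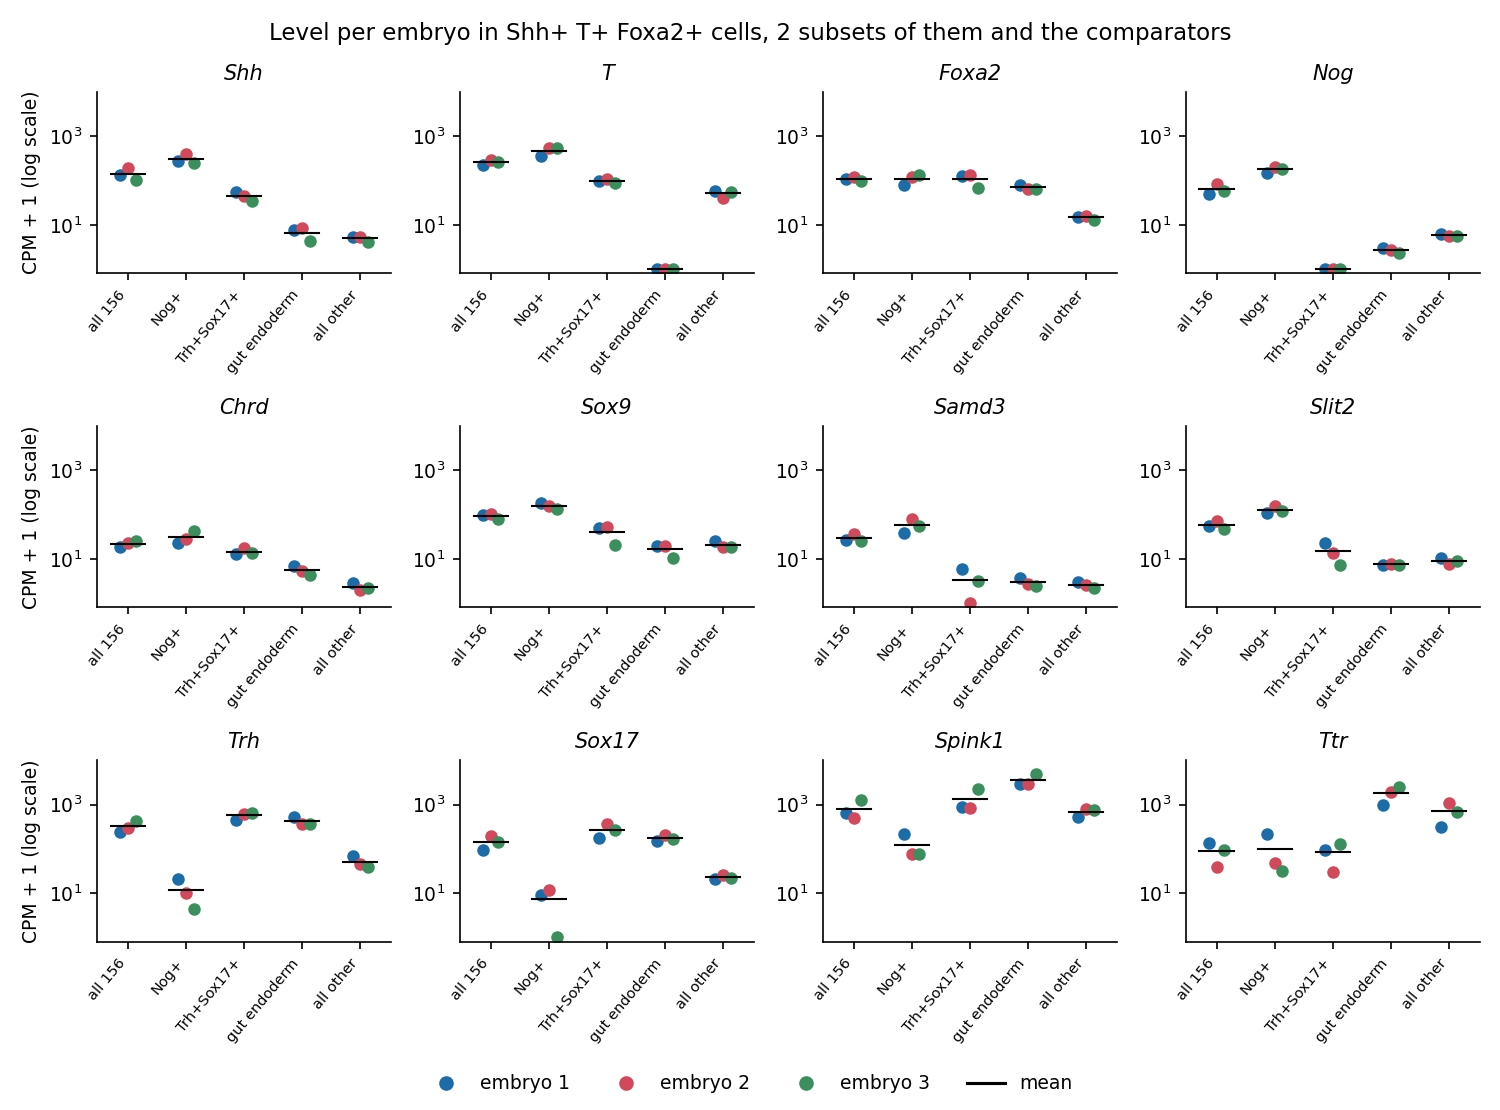
Summed level of 12 genes in CPM with 1 added (vertical axis, log scale) by embryo (coloured points) with the mean over 3 embryos (line), in all 156 Shh+ T+ Foxa2+ cells, in the 61 with Nog and without both of Trh and Sox17 (Nog+), in the 61 with Trh and Sox17 and without Nog (Trh+Sox17+), in gut endoderm and in all other cells. Samd3 and Slit2 were not used to draw the sets and stand at 57.3 and 126 CPM in the Nog+ set and at 2.33 and 13.8 CPM in the Trh+Sox17+ set.

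Beyond the lists, the genes furthest above gut endoderm after Nog were Samd3 and Slit2, among called genes with at least 20 CPM in the higher class. Samd3, which encodes a protein with a sterile alpha motif, stood at 26.2, 35.9 and 24.8 CPM against 2.78, 1.76 and 1.49 (3.76 ± 0.27, adjusted p = 1.1e-05). Slit2, a secreted ligand of Robo receptors that repels axons at the midline, stood at 54.6, 70.5 and 46.7 CPM against 6.46, 6.68 and 6.41 (3.14 ± 0.18, adjusted p = 1.5e-06). Neither gene had overlapping values, and both were carried mainly by the cells with Nog. Samd3 was detected in 44 of the 61 cells with Nog and without both of Trh and Sox17 and in 4 of the 61 with Trh and Sox17 and without Nog. Slit2 was detected in 47 and 21 of these cells.

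Among called genes with at least 20 CPM in the higher class, the remaining genes of the 15 furthest above gut endoderm ranged from 2.64 to 2.10 in log2 fold change. Foxd4, a forkhead factor, changed by 2.64, and Ppp1r1a, an inhibitor of protein phosphatase, by 2.63 from 17.8 ± 3.01 to 111 ± 13.4 CPM (SD, n = 3). Alcam, an adhesion molecule, changed by 2.55, Aplnr, the apelin receptor, by 2.47 and Krt19, a keratin, by 2.44. Tmod2, an actin-capping tropomodulin, changed by 2.34 and Hoxaas3, an antisense transcript of the Hoxa cluster, by 2.18. Six3, a homeobox factor of the anterior neural plate, changed by 2.13 and Calca, which encodes calcitonin and its related peptide, by 2.10. Of the 15, Hoxaas3 did not pass the threshold without embryo 3 or with the gate applied after thinning, and Hoxaas3 and Calca did not when cells were thinned after the gate.

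Among called genes with at least 20 CPM in the higher class, the 10 furthest below gut endoderm had log2 fold changes from -4.31 to -3.40. Ttr, the transthyretin carrier made by visceral endoderm and liver, stood at 138, 38.5 and 95.2 CPM against 991, 1971 and 2520 (-4.31 ± 0.41, adjusted p = 9e-05). Apoa1, an apolipoprotein, and Rbp4, the retinol carrier, changed by -4.00 and -3.81, and Cubn, the endocytic receptor cubilin, by -3.40. Soat2, S100g, Fxyd2, Apoc3, Spp2 and Maf made up the rest, at 1.65 to 7.04 CPM in the Shh+ T+ Foxa2+ cells. Calls of Apoc3 and Soat2 were lost without embryo 2. All 6 extraembryonic endoderm markers were lower, and 6 of 10 tested endoderm markers outside the rule were lower and 0 higher (8 and 0 with the block), beside 3.92% of all genes lower and 2.38% higher (7.89% and 5.85% with the block). Among the endoderm markers called lower were Hnf4a, Hhex, Gata4, Spink1 and Apela, which include transcription factors of the endoderm and liver bud. When both gates were applied after thinning, which left 44 Shh+ T+ Foxa2+ cells, 9 of the 10 genes were tested and 0 passed the threshold, and Cubn stood at a log2 fold change of 0.086. Of the 6 extraembryonic endoderm markers 1, Apoe, was then called lower, and Apoa2 stood at 0.84.

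Against all other cells, Nog, Chrd, Mnx1, Samd3 and Krt19 were higher, and so were Foxa1, Trh and Sox17. Of 15483 genes tested, 629 were higher (4.06%) and 413 lower (2.67%), and 1116 (7.21%) and 1528 (9.87%) with the embryo as a block. The number called was 167 without embryo 3 and 364 without embryo 2, and 1604 with DESeq2. When the cells with Trh and Sox17 were left out, 157 genes were higher and 31 lower (1.03% and 0.202% of 15311 genes tested), and 162 of these 188 were among the original calls in the same direction. With the block as well, 356 were higher (2.33%) and 471 lower (3.08%). The comparator shared the 3 embryos with that of gut endoderm and contained its cells. It kept its cells with Trh and Sox17 when such cells were left out of the Shh+ T+ Foxa2+ cells. Genes carried by them then move down by construction, so calls lost, turned or lower in that setting are descriptions.

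In the notochord list 7 of 10 genes were higher and 0 lower (8 and 0 with the block, Sox6 being added). The shares of all genes were 4.06% and 2.67% (7.21% and 9.87% with the block). The list had a median log2 fold change of 2.11 against -0.06 over all genes tested. Mnx1 changed by 4.06 ± 0.34 (adjusted p = 9.5e-05), Chrd by 3.87 ± 0.29 (4e-05) and Nog by 3.65 ± 0.19 (4.9e-06). Nog stood at 5.12, 4.54 and 4.54 CPM in all other cells, and Chrd at 1.84, 1.03 and 1.21 CPM, both below every value of the Shh+ T+ Foxa2+ cells. Col2a1, Sox9 and Bicc1 changed by 2.42, 2.17 and 2.04. Noto changed by 1.71 ± 0.39 (adjusted p = 0.027) with overlapping groups, since embryo 3 at 1.90 CPM lay within the range of the comparator, 1.63 to 2.15 CPM. When the cells with Trh and Sox17 were left out, Noto no longer passed the test (adjusted p = 0.055). That fit held 81 cells in place of 156, so the lost call alone does not show a lower level. Against gut endoderm Noto was called higher in that setting, a comparison that the removal itself moves. Car3, which was higher than in gut endoderm, stood at 21.3 ± 3.71 CPM against 21.9 ± 4.54 in all other cells (SD, n = 3).

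**Figure D3:**
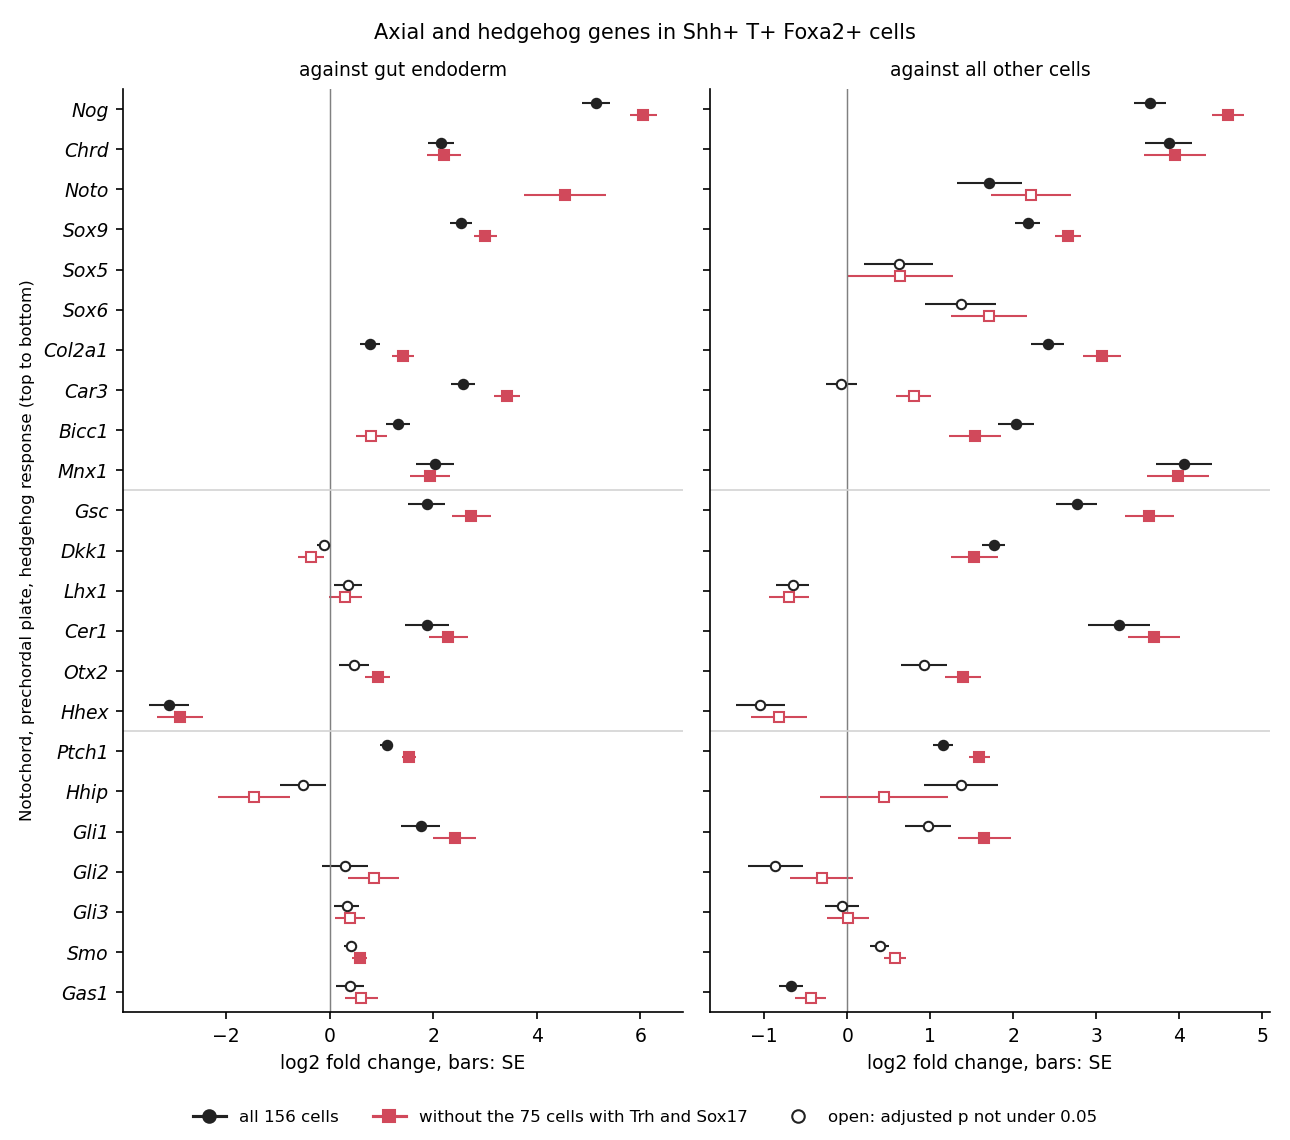
Log2 fold change (horizontal axis, bars SE) of notochord, prechordal plate and hedgehog genes in Shh+ T+ Foxa2+ cells against gut endoderm (left) and all other cells (right), for all 156 cells (black circles) and without the 75 cells with Trh and Sox17 (red squares), with open symbols where the adjusted p was not under 0.05. Nog is furthest right against gut endoderm, at 5.14 and 6.06, and Hhex was called lower there, at -3.11 and -2.90.

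The 15 genes furthest above all other cells were taken among called genes with at least 20 CPM in the higher class. Of these, 12 passed the threshold without the cells with Trh and Sox17, 9 when embryo 2 was left out as well and 11 when embryo 3 was. Samd3 changed by 4.12 ± 0.24 (adjusted p = 1e-05) and by 4.88 without them, and Krt19, an epithelial keratin, by 4.11 ± 0.29 (2.6e-05) and by 4.68. Cobl, an actin nucleator, Foxd4 and Slit2 changed by 3.42, 3.26 and 2.77 and likewise did not fall without those cells, at 3.64, 3.61 and 3.51. Cer1, which encodes a secreted antagonist of Nodal and BMP signals, changed by 3.28 and 3.70, and Fam174b by 2.86 and 2.91, the latter not called when embryo 2 was left out as well.

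Other genes followed the cells with Trh and Sox17. Upk3a, a uroplakin, stood at 10.9, 41.8 and 25.7 CPM against 2.57, 2.67 and 2.04 (3.32 ± 0.38, adjusted p = 0.00062). It stood at 17.5, 89.0 and 46.8 CPM in the cells with Trh and Sox17 and without Nog, and at 1.66, 0 and 3.40 CPM in the cells with Nog and without both of them. Without the cells with Trh and Sox17 its log2 fold change was -1.45 (adjusted p = 0.50). Pax9, a paired-box factor of the pharyngeal endoderm, went from 2.90 to -0.26 (adjusted p = 0.91) and Krt7 from 3.03 to 1.53 (0.098). Gpx2, a glutathione peroxidase, went from 3.61 to 1.72 (adjusted p = 0.0053) and was not called when embryo 2 was left out as well. Foxa1, a forkhead paralogue of Foxa2, stood at 39.3, 39.2 and 41.9 CPM against 6.19, 3.66 and 2.76 (3.19 ± 0.28, adjusted p = 0.00012). It was present in both sets, at a mean of 29.8 CPM in the cells with Nog and 51.3 CPM in the others, and was higher by 2.51 without the cells with Trh and Sox17 (0.0048), a call lost when embryo 2 or embryo 3 was left out as well.

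Trh and Sox17 themselves were higher than in all other cells, by 2.64 ± 0.23 and 2.63 ± 0.22, and with them Apela, a secreted apelin receptor ligand, by 1.44 and Foxa3 by 1.92. Foxa3 turned to -0.60 without the cells with Trh and Sox17. Apela turned to -0.17 with the gate applied after thinning, to -0.048 with at least 2 UMIs of Shh, T and Foxa2 and to -0.26 with only the cells with Nog. In all, 5 of 13 endoderm markers were higher and 2, Hnf4a and Gata4, lower (6 and 3 with the block), beside 4.06% and 2.67% of all genes (7.21% and 9.87%). Without the cells with Trh and Sox17, which fixes the direction for those genes, Foxa1 was the 1 marker left higher, and Gata4 and Spink1 were lower. The comparator kept its own cells with Trh and Sox17, so markers carried by such cells move down by construction. The lower calls are descriptions. In that setting 1.03% of all genes were higher and 0.202% lower.

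Among called genes with at least 20 CPM in the higher class, the 10 furthest below all other cells ranged from -3.27 to -2.88. Mef2c, a myocyte enhancer factor of heart and other mesoderm, changed by -3.13 ± 0.26 (adjusted p = 9.1e-05), from 30.5 ± 3.61 to 3.25 ± 1.76 CPM. The other 9 were S100g, Apoa1, Slc2a2, Fxyd2, Apoa2, Ttr, Rbp4, Maf and Npl, which include the carriers of visceral endoderm and liver. None of the 9 passed the threshold without embryo 3, and Apoa2, Fxyd2, Npl, S100g and Slc2a2 did not pass it without embryo 2. Of the 10, 4 passed it without the cells with Trh and Sox17, 4 with cells thinned after the gate, 2 with at least 2 UMIs of Shh, T and Foxa2 and 0 with the gate applied after thinning. Apoe, Ttr and other extraembryonic endoderm markers summed to 1093, 3276 and 2140 CPM in all other cells.

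**Figure D4:**
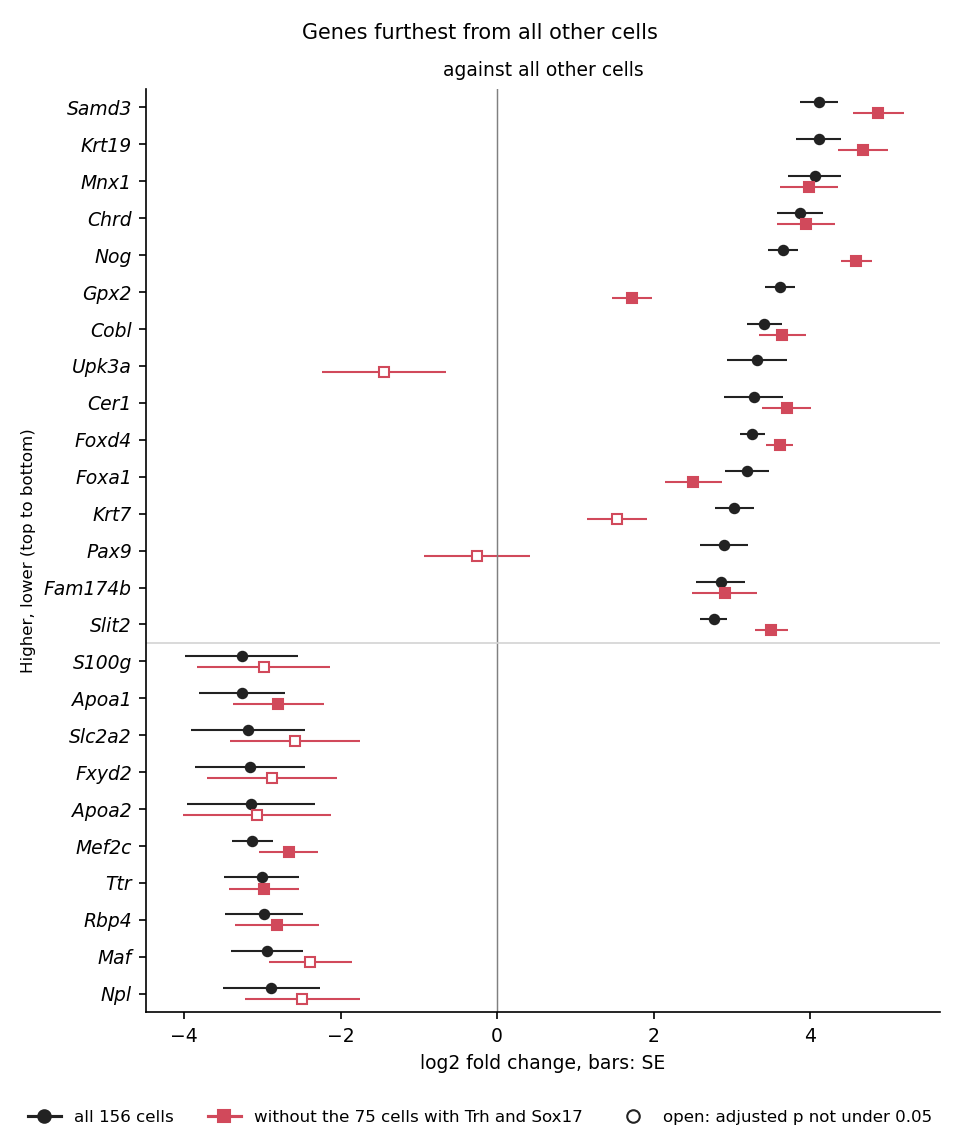
Log2 fold change against all other cells (horizontal axis, bars SE) of the 15 genes furthest above and the 10 furthest below them, among called genes with at least 20 CPM in the higher class. Values are for all 156 cells (black circles) and without the 75 cells with Trh and Sox17 (red squares), with open symbols where the adjusted p was not under 0.05. Upk3a, Krt7 and Pax9 lose their call without those cells, at -1.45, 1.53 and -0.26, whereas Samd3, Krt19 and Nog move further up.

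To set sequence beside these levels, the RefSeq promoter windows (250 bases before to 50 after the start, GRCm38.p6, the build of the files) of the genes named as higher were searched for a forkhead motif, TGTTTAC, and a T-box motif, TCACACCT, on both strands. These letters are of the families to which Foxa2 and T belong. Windows were held for 17 of the 24 genes, and 1 held each motif. The motifs occur in 3.65% and 1.28% of all 32851 windows of this length and do not overlap each other. The windows of Samd3 (chr10:26229457-26229756, plus strand) and Foxa1 (chr12:57546062-57546361, minus strand) are shown 5′ to 3′ along the gene, with the matched letters in capitals. In Samd3 the T-box letters begin 15 bases before the start, and in Foxa1 the forkhead letters begin 141 bases before it, on the opposite strand. In the GENCODE annotation Samd3 spans chr10:26229707-26272172 on the plus strand, and the Foxa1 window lies within the annotated gene, chr12:57540628-57546916 on the minus strand. A match is a description of the sequence and not evidence of binding.
Samd3: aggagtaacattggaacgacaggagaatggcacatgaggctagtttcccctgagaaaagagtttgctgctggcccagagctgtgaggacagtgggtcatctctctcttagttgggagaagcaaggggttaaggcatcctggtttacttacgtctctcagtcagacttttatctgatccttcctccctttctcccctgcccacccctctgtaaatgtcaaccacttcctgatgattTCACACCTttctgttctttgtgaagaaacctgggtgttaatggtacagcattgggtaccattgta
Foxa1: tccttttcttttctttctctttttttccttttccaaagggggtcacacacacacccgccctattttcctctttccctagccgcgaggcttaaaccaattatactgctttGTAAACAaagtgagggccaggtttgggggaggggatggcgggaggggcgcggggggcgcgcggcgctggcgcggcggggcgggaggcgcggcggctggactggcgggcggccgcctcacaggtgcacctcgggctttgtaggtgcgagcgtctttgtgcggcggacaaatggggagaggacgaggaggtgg

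Among genes of the prechordal plate, Gsc, a homeobox factor of the organizer, stood at 14.4, 22.2 and 22.8 CPM against 3.68, 8.61 and 3.63 in gut endoderm (1.87 ± 0.35, adjusted p = 0.0069) and 2.84, 3.00 and 2.32 in all other cells (2.76 ± 0.25, 0.00013), without overlap. Cer1 was higher than in gut endoderm by 1.88 ± 0.42 (0.019). Dkk1, a Wnt antagonist, stood at 69.0 ± 8.69 CPM against 73.6 ± 3.79 in gut endoderm and was higher than in all other cells by 1.77. Hhex, a homeobox factor of anterior endoderm, was lower than in gut endoderm, with a log2 fold change of -3.11 ± 0.39 (0.00049). In all, 2 of 6 genes were higher and 1 lower against gut endoderm (3 and 1 with the block), and 3 higher and 0 lower against all other cells (4 and 2 with the block, Otx2 being added and Hhex and Lhx1 lower). The shares of all genes were 2.38% higher and 3.92% lower against gut endoderm (5.85% and 7.89% with the block) and 4.06% and 2.67% against all other cells (7.21% and 9.87%).

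Of the hedgehog pathway, the receptor and target Ptch1 stood at 236, 213 and 169 CPM against 106, 99.5 and 82.9 in gut endoderm (1.10 ± 0.13, adjusted p = 0.00029) and 92.1, 81.9 and 93.7 in all other cells (1.15 ± 0.12, 0.0004). No value of the Shh+ T+ Foxa2+ cells overlapped either comparator. Gli1, a transcriptional effector and target of the pathway, stood at 10.1, 8.49 and 14.3 CPM, above gut endoderm by 1.76 ± 0.37 (0.014), and against all other cells it differed by 0.97 (0.063, and 0.0062 with the block). Gli1 reached 1.65 against all other cells (0.028) when the cells with Trh and Sox17 were left out. Gas1, a co-receptor, was lower than in all other cells by a log2 fold change of -0.68 (0.022) and was not called without those cells (-0.44, 0.37). Ihh, a ligand of the same family as Shh, did not pass against gut endoderm (-0.69, 0.37) and was lower with the block (-0.74, 0.034), while against all other cells it stood at 1.36 (0.094) and was higher with the block (1.31, 4e-06). Gli3 did not pass in either comparison, and Hhip and Gli2 passed against all other cells with the block (1.31 and -0.85) but not without it. In sum 2 of 12 tested genes were higher and 0 lower against gut endoderm (4 and 1 with the block). Over all genes 2.38% were higher and 3.92% lower in that comparison (5.85% and 7.89% with the block). Against all other cells 1 of 16 was higher and 1 lower (5 and 3 with the block). Over all genes, 4.06% were higher and 2.67% lower against all other cells (7.21% and 9.87% with the block), and 1 of 16 in either direction is close to those shares.

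Among ligands and antagonists of BMP, Nodal and Wnt signalling, Nog, Chrd, Cer1 and Fst were the 4 of 13 tested that were higher than in gut endoderm, with 0 lower (6 and 2 with the block), beside 2.38% and 3.92% of all genes (5.85% and 7.89%). Fst, the activin antagonist follistatin, changed by 1.27 there and by -0.86 against all other cells. Of 18 tested against all other cells, Nog, Chrd, Cer1 and Dkk1 were higher, and Fst and Sfrp5, a secreted Wnt antagonist, lower (5 and 4 with the block), beside 4.06% and 2.67% of all genes (7.21% and 9.87%). Both lower calls were lost without the cells with Trh and Sox17, where 0.202% of all genes were lower in place of 2.67%. Dand5 stood at 0.874, 10.4 and 9.52 CPM and Nodal at 0.437, 5.22 and 10.5 CPM, with embryo 1 below the others. With the block, Dand5 was called against gut endoderm (1.56) and Nodal against all other cells (1.62), and without it neither was. Lefty1 had 0 UMIs in the 156 cells, which allows a share of up to 1.92% of cells with a UMI. Detection depends on depth, so this does not limit the share of cells that express it.

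Of 19 matrix genes tested against gut endoderm, 2 were higher, Col9a1 and Col2a1, 5 were lower and 12 did not pass, beside 2.38% of all genes higher and 3.92% lower. With the block 2 were higher and 6 lower, Lama1 being added, beside 5.85% and 7.89% of all genes. Col9a1 stood at 11.4, 24.2 and 11.4 CPM against 2.00, 1.58 and 2.35 in gut endoderm (2.97 ± 0.36, adjusted p = 0.00041) and 7.32, 6.31 and 6.62 in all other cells (1.14 ± 0.27, 0.029). Lower were Col4a1, Col4a2, Nid2 and Lamb1, which encode basement membrane proteins, and Sparc, with Col4a2 at -0.83 and Col4a1 at -0.73. Col4a1 and Col4a2 were instead higher than in all other cells, by 0.77 and 0.82, and there 9 of 20 matrix genes were higher and 1, Hapln1, lower, beside 4.06% and 2.67% of all genes. With the block 11 were higher there and 1 lower, Hspg2 and Nid1 being added, beside 7.21% and 9.87% of all genes. Without the cells with Trh and Sox17, Col2a1 and Col9a1 were the 2 of 20 called higher, beside 1.03% of all genes, and Col4a1 stood at -0.26 (0.68). Col4a1 stood at 82.8, 137 and 139 CPM in the cells with Nog and without both of Trh and Sox17 and at 346, 337 and 311 CPM in those with Trh and Sox17 and without Nog.

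Among epithelial and mesenchymal genes, Krt19, Cldn4, Krt8, Krt18, Cldn6, Cdh1, Epcam, Cldn7 and Tjp1 were higher than in all other cells, 9 of 14, and 0 were lower (9 and 3 with the block, Snai1, Snai2 and Vim being lower), beside 4.06% and 2.67% of all genes (7.21% and 9.87%). Without the cells with Trh and Sox17 the keratins Krt19, Krt8 and Krt18 and the cadherins Cdh1 and Cdh2 were higher, beside 1.03% of all genes. Cldn7, a tight-junction claudin, then turned from 0.89 ± 0.18 (adjusted p = 0.015) to -0.92 (0.048), beside 0.202% of all genes lower. Both comparators kept their cells with Trh and Sox17, so genes carried by the removed cells fall in this setting by construction. The values of Cldn7 and Epcam in it are descriptions and no support. Epcam, an epithelial adhesion molecule, went from 1.33 to 0.15 (0.71), and against gut endoderm it was not called without the block (adjusted p = 0.19) and was lower with it (-0.33, 0.0058) and without the cells with Trh and Sox17 (-1.52, 1.5e-05). It stood at 119, 116 and 187 CPM in the cells with Nog and without both of Trh and Sox17 and at 470, 792 and 519 CPM in those with Trh and Sox17 and without Nog. Against gut endoderm 4 of 14 were higher, Krt19, Cdh2, Snai1 and Zeb2, and 2 lower, Cldn7 (-1.02 ± 0.15, 0.0013) and Cldn6 (-0.43, 0.029), beside 2.38% and 3.92% of all genes. With the block 5 were higher there and 3 lower, Vim and Epcam being added, beside 5.85% and 7.89% of all genes. Zeb2, a repressor of epithelial genes, stood at 72.1, 64.6 and 67.6 CPM against 20.2, 18.3 and 23.1 (1.74 ± 0.14, 3.6e-05), and Cdh2, the cadherin of mesoderm and neural tissue, changed by 1.63.

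Position along the body axis was described by Hox genes and caudal markers. Against gut endoderm 6 of 14 tested Hox genes were higher and 0 lower (13 and 0 with the block), among them Hoxb8 (1.96) and Hoxb1 (1.38), beside 2.38% and 3.92% of all genes (5.85% and 7.89%). With both gates applied after thinning, in classes that can hold cells outside the main rules, Hoxb8 stood at -0.17. Against all other cells 0 of 34 were higher and 4, Hoxa2, Hoxb3, Hoxb1 and Hoxb2, lower (0 and 8 with the block). The shares of all genes there were 4.06% and 2.67% (7.21% and 9.87%). None of the 4 was called without the cells with Trh and Sox17, where 0.202% of all genes were lower. Caudal epiblast genes Wnt3a, Cdx4, Fgf8, Nkx1-2 and Cdx1, 5 of 6 tested, and presomitic genes Hes7, Tbx6, Dll3, Dll1 and Rspo3, 5 of 6, were higher than in gut endoderm, beside 2.38% of all genes. With both gates applied after thinning 0 of 5 tested Hox, 0 of 5 caudal and 0 of 1 presomitic genes were called there. In the comparison with all other cells 0 of 7 and 0 of 8 were higher, and Rspo3 was lower, by a log2 fold change of -1.07. With the block, 4 of the 7 caudal and 6 of the 8 presomitic genes were lower. The gut endoderm gate required T at 0, and T is itself expressed in caudal cells.

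Among other transcription factors of the forkhead, T-box and Sox families, 3 of 13 tested were higher than in gut endoderm, Foxd4, Tbx6 and Foxb1, and Tbx3 was lower (-1.74), beside 2.38% and 3.92% of all genes (5.85% and 7.89% with the block). With the block 6 were higher, Sox2, Sox3 and Sox11 being added. When the cells with Trh and Sox17 were left out, the same 3 Sox genes were higher with Foxd4 and Foxb1, Foxa3 and Tbx3 were lower, and Tbx6 did not pass the filter on low counts. Foxd4, Foxa1, Foxa3 and Sox4 were higher than in all other cells and Tbx5, Sox7, Foxc2 and Tbx3 lower, of 18 (4 and 7 with the block), beside 4.06% and 2.67% of all genes (7.21% and 9.87%). Without the cells with Trh and Sox17, 2 stayed higher, Foxd4 and Foxa1, and 0 were lower, beside 1.03% and 0.202% of all genes. Sox2, a neural plate factor, stood at 51.1, 33.3 and 41.9 CPM against 62.4, 52.5 and 56.2 in all other cells (adjusted p = 0.081, and 0.00046 with the block). The homeobox gene Nkx2-9 of the ventral midline was the 1 of 7 neural markers called higher there, by 2.81 ± 0.34 (0.00085), and Pou3f1 was lower (3 higher and 2 lower with the block).

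Of 20 cell cycle genes tested against gut endoderm, 1 was higher and 0 were lower (2 and 1 with the block), beside 2.38% and 3.92% of all genes (5.85% and 7.89%). The 1 was Ccnd1, a cyclin of the G1 phase, at 313, 363 and 409 CPM against 154, 154 and 160 (1.21 ± 0.12, adjusted p = 0.00011). With both gates applied after thinning, in classes that can hold cells outside the main rules, its log2 fold change was -0.72. In the comparison with all other cells, Ccnd1 and Cdkn1a were higher and Ccne1 lower, of 21, and all 3 calls were lost without the cells with Trh and Sox17. Over all genes 4.06% were higher and 2.67% lower there, and 1.03% and 0.202% without those cells. With the block 3 of the 21 were higher and 9 lower, beside 7.21% and 9.87% of all genes. Mki67 stood at 174 ± 5.26 CPM against 182 ± 12.8 in gut endoderm and 178 ± 5.19 in all other cells (SD, n = 3). Ccnd1 stood at 377, 513 and 519 CPM in the cells with Trh and Sox17 and without Nog and at 280, 235 and 201 CPM in those with Nog and without both of them, without overlap.

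Ciliary genes that the rule did not use were listed separately. Of the list of 33, 32 were in the files and 10 were tested against gut endoderm, with Bbs4, a component of the ciliary transport complex, higher by 1.07 ± 0.27 (adjusted p = 0.034). It was not called without the cells with Trh and Sox17 (0.056), where Rfx3 was, and with the block both were. Against all other cells, which include ciliated cells, 2 of 31 were higher and 1 lower (4 and 3 with the block). These counts are near the shares over all genes, 2.38% higher against gut endoderm and 4.06% higher and 2.67% lower against all other cells (7.21% and 9.87% with the block), and are no result about the list. Pkd1l1, a polycystin of the node cells, had 7, 12 and 2 UMIs in the 156 cells, or 3.06, 7.84 and 1.90 CPM against 0.435, 0.263 and 0.273 (3.67 ± 0.54, 0.0029). Ift57 was higher by 0.71. Dynlrb2, a dynein light chain, also had 0 UMIs in the 156 cells and was the 1 called lower. It was still at 0 but, over fewer cells, was not called without the cells with Trh and Sox17. Pifo, a gene of ciliated node cells, stood at 8.24 ± 3.32 CPM against 5.64 ± 2.12 in gut endoderm and 6.24 ± 0.192 in all other cells. Leaving out of the comparator the ciliated cells (T with at least 2 of the 3 ciliary genes of the rule) left 1082 genes called in place of 1042.

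Noto was detected in 20 and Gsc in 25 of the 156 cells, few enough that the number holding both says little. Noto without Gsc was found in 19 cells (8, 10 and 1 per embryo), Gsc without Noto in 24 (13, 5 and 6), both in 1 and neither in 112. Otx2, a homeobox factor of the head, was detected in 5 of the 19 cells with Noto (26.3%, 95% exact binomial interval 9.15% to 51.2%) and in 20 of the 24 with Gsc (83.3%, 62.6% to 95.3%). Hhex was detected in 2 and 10 of these cells and Dkk1 in 5 and 15. In the other direction, Mnx1 was detected in 12 of the 19 and 5 of the 24, and Chrd in 12 and 7. Nog was detected in 15 and 13, and Samd3 in 15 and 15. Cells with Noto had a median of 17598 UMIs and those with Gsc 28325, and 1 of the 19 and 5 of the 24 were among the top doublet scores. The cells are pooled over embryos, so these are shares of cells with no test.

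**Figure D5:**
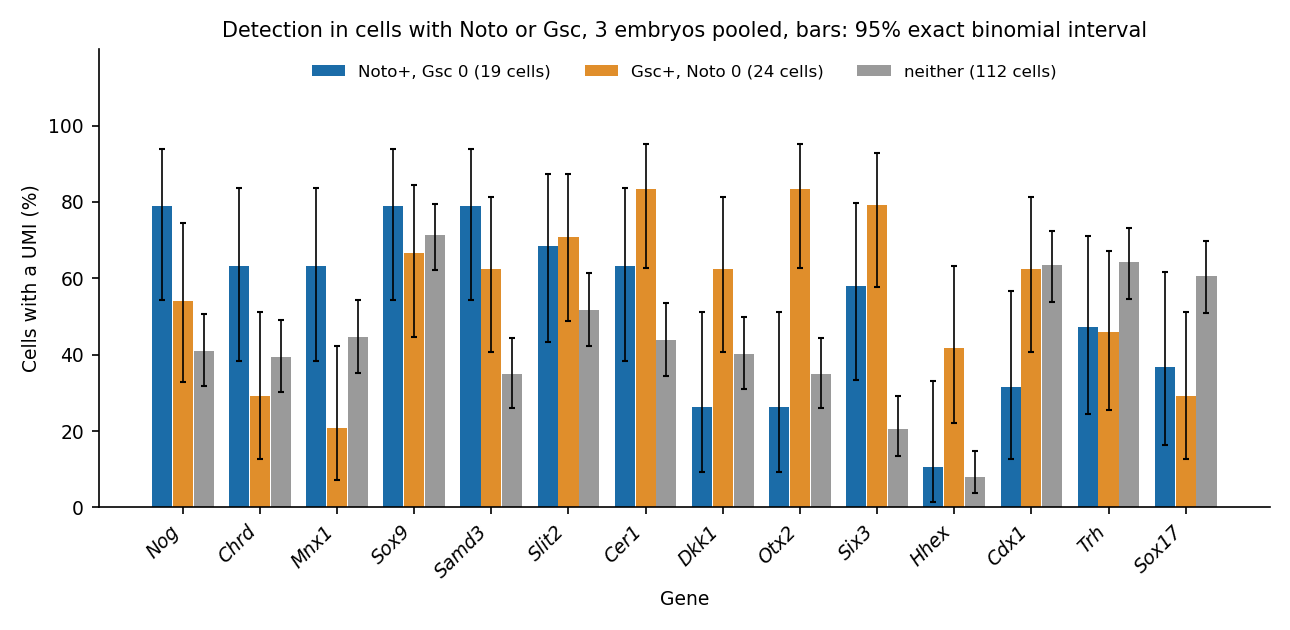
Share of cells with a UMI of each gene (vertical axis, percent) among Shh+ T+ Foxa2+ cells with Noto and without Gsc (blue, 19 cells), with Gsc and without Noto (orange, 24 cells) and with neither (grey, 112 cells), pooled over 3 embryos, with 95% exact binomial intervals that cover counting error only. Otx2, Dkk1 and Hhex are detected in more of the Gsc cells (20, 15 and 10 of 24), and Mnx1 and Chrd in more of the Noto cells (12 and 12 of 19).

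The cells without Nog and without both Trh and Sox17, 20 in all (8, 6 and 6), had medians of 1 UMI of Shh, 4.5 of T and 2.5 of Foxa2. Samd3 was detected in 10 of them, Sox9 in 15 and Ptch1 in 18. Their median depth was 27113 UMIs, above the 17804 of the cells with Nog and without both of Trh and Sox17. The 14 cells with Nog, Trh and Sox17 had medians of 6 UMIs of Shh, 15 of T, 10.5 of Trh and 4 of Sox17, at a median depth of 29728 UMIs, and 3 of the 14 were among the top doublet scores.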

How the data were processed

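Per the labels and the study's methods, the authors made the files with Cell Ranger 3.1.0 against mm10 with an EGFP sequence added. The deposited values are raw counts of UMIs per feature and barcode, 1 library per embryo, neither normalized nor pooled. Barcodes with 1500 to 8500 genes (up to 7500 in embryo 2) and at most 10% mitochondrial UMIs were kept, by the limits that the methods state. After a first clustering the study also removed clusters that it took for doublets or empty droplets, a step not applied here. The cells, the gene lists and the named genes were chosen with earlier results of these data known. UMIs were summed per embryo and class. edgeR 4.0.16 (filterByExpr, TMM, quasi-likelihood F test, R 4.3.3) was fitted over all genes, and SE is the log2 fold change over the square root of F. DESeq2 1.42.0, no filter, thinning to 5000 UMIs, stricter gates, removal of the top 6% of Scrublet scores (scanpy 1.11.5) and leaving out embryos were alternatives.

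Both sums of an embryo come from the same animal, which pairs them. Deviations from the class means correlated across genes by 0.283, 0.252 and 0.183 (gut endoderm) and 0.114, 0.0914 and 0.121 (all other cells) in embryos 1, 2 and 3. Named genes were the 15 higher and 10 lower genes with the largest fold change among those past the threshold, in the same direction in 3 embryos, with at least 20 CPM in the higher class, unnamed gene models left out, and the members of the gene lists. P-values without the block rest on the spread between the 3 embryos within a class, moderated across genes. With the block they rest on the spread left once the embryo effect is removed. Apoa1 against all other cells had an SE of 0.55 without the block and 0.087 with it. Small p-values with the block still come from 3 embryos and do not measure the spread between them. Coordinates are from GENCODE M21, which held 31011 of 31054 features. Doublets were not removed from the main result. Intervals cover counting error only. Results that need a few withheld genes are not reported here.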

Additional observations from a re-analysis of the deposited data

Results flagged for a closer look

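The feature EGFP, which was added to the reference, had 28, 0 and 31 UMIs in all quality-controlled cells of wild-type embryos 1, 2 and 3, 59 in all, above the 3 counts that a count of 0 allows. They came from 20, 0 and 21 cells, and 0 of the Shh+ T+ Foxa2+ cells held one. The embryos are labelled wild type, and the source of these UMIs was not tested.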

How the results depend on the processing

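Values in this section are counts of genes called or log2 fold changes. Against gut endoderm (665 genes called) the count was 1205 with no filter on low counts, 1451 with the embryo as a replicate block, 193 with cells thinned after the gate, 284 with the gate applied after thinning and 1212 without the cells with Trh and Sox17. It was 610 without the top doublet scores, and ranged from 178 to 681 when an embryo was left out. Against all other cells (1042) it was 1604 with DESeq2, 2644 with the block, 178 with at least 2 UMIs of Shh, T and Foxa2, 421 with thinned cells, 465 with the gate after thinning and 188 without the cells with Trh and Sox17. In this comparison it was 1338 without the top doublet scores, and it ranged from 167 to 905 when an embryo was left out. Of alternatives chosen after seeing the data, using only the cells with Nog gave 373 against all other cells. Leaving out the cells with Trh and Sox17 together with the block gave 1618 against gut endoderm, and with DESeq2 1082 and, against all other cells, 827 with the block and 500 with DESeq2. Leaving them out with 1 embryo gave 483 to 895 and 56 to 289. The number of Shh+ T+ Foxa2+ cells was 56 with at least 2 UMIs. With the gate after thinning 44 cells passed, not all of which need meet the rule on full counts.

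Directions turned for these genes. With the gate after thinning, against gut endoderm, Apoa2 stood at 0.84, Ccnd1 at -0.72, Cdx1 at -0.090, Cubn at 0.086 and Hoxb8 at -0.17, and against all other cells Apela at -0.17, Ccnd1 at -0.28, Col18a1 at -0.82 and Fn1 at -0.55. Without the cells with Trh and Sox17, against all other cells, Cldn4 stood at -0.19, Cldn7 at -0.92, Col18a1 at -0.38, Col4a1 at -0.26, Col4a2 at -0.18, Fn1 at -0.29, Foxa3 at -0.60, Pax9 at -0.26, Sox17 at -1.31, Trh at -1.22 and Upk3a at -1.45. Trh and Sox17 are fixed by the choice there, and genes carried by the removed cells are moved down by it. With at least 2 UMIs of Shh, T and Foxa2, Apela stood at -0.048, Cldn7 at -0.36, Col18a1 at -0.42, Col4a2 at -0.048, Fn1 at -0.27 and Upk3a at -0.083. With only the cells with Nog, Apela stood at -0.26, Cldn7 at -0.11, Col18a1 at -0.39 and Fn1 at -0.34. The cause was not tested for the other genes and counts. Of the 192 and 265 named and listed genes tested against gut endoderm and all other cells, the block lost 0 calls and added 38 and 65. Depth limits detection: after thinning to 5000 UMIs Chrd was found in 13.6% of the cells in place of 40.4%.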
